A study of Mus musculus with 5 samples.

Results

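Hormones reach the milk-producing gland through a small set of receptors, and the messenger RNAs of 9 of them are described here in mammary glands of wild-type and Nfib-null mice. The genes were chosen by name, and all 9 were found among the 22609 genes of the table: Prlr, Ghr and Insr for the peptide hormones prolactin, growth hormone and insulin, Nr3c1, Esr1 and Pgr for glucocorticoid, estrogen and progesterone, Thra and Thrb for thyroid hormone, and Vdr for vitamin D. The groups were 2 libraries labelled wild type and 3 labelled Nfib-null (KO), from whole mammary tissue of outbred mice without its lymph nodes, taken on the day of parturition less than 12 hours after delivery; no treatment is given in the labels, and both groups were from animals that had given birth. Nfib encodes nuclear factor I/B, a transcription factor, and the series asks how it acts together with STAT5 on gene expression induced by pregnancy. The labels do not give the animals' age, how Nfib was deleted, in which cells, or whether glands were pooled.

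Prolactin and growth hormone bind single-pass receptors of the cytokine receptor class, which have no kinase of their own and signal through the kinase JAK2 to STAT5. The insulin receptor is itself a tyrosine kinase that works through IRS adaptors, PI3 kinase and AKT. The steroid, thyroid and vitamin D receptors are nuclear receptors, transcription factors whose activity is controlled by hormone. The thyroid and vitamin D receptors bind DNA together with a retinoid X receptor. Prolactin, glucocorticoid and insulin are the classical trio of hormones needed for milk protein synthesis in mammary epithelium. Progesterone holds milk secretion back until birth, and estrogen and progesterone receptors lie mostly in a hormone-sensing subset of luminal cells.

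Each group is given by 1 value per gene, in RPKM (reads per kilobase of gene, relative to all mapped reads of the library), so there is no replicate spread, no test and no error on any value below. A difference is described by its size, and "higher" and "lower", as calls, mean at least 2-fold. RPKM is per gene length, so levels of different genes can be set side by side. Log2 differences are Nfib-null minus wild type, taken on log2(scaled RPKM + 1) after the columns were scaled by median ratio, which removed a median log2 ratio of 0.41 between them; the RPKM values printed are as deposited. Of the 9 receptor genes, 8 reached a library-weighted mean of 1 RPKM and are among the 12511 genes kept for counts. Pgr did not.

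The wild-type column is tied to its group by its name, and the other, named NfibFF-WC, was taken for the Nfib-null group because the series has no other; the labels do not spell it out. Nfib itself was not lower there (55.3 against 33.7 RPKM), and a whole-gene value may include exons outside the deleted part, so this does not check the assignment. The caseins, Wap and Lalba made up 24.8% of summed RPKM in the Nfib-null column and 50.9% in the wild type. Steps between low values placed the libraries at about 14900000 and 17700000 reads for the wild type and about 22900000 to 32800000 for the Nfib-null group. In the wild-type column 8 of 489 genes at 100 RPKM or more shared their exact value with another gene. Its values may thus have been adjusted by rank and are approximate, as are read numbers derived from them. None of the 9 receptor genes shared a value, but Wap and Lalba, given below, did (Wap with Glycam1, Lalba with Spp1).

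The study concerns NFIB and STAT5, and the promoters in which their textbook motifs were searched are shown first. RefSeq start sites (GRCm38.p6) were matched for 6 of the 9 genes, at 11 sites, and the 250 bases before each were read. The STAT motif TTCNNNGAA, which reads the same on both strands, stood before 2 of the 11 sites, and in 7.02% of 32841 windows of all genes. The complete NFI motif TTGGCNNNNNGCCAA stood before 0 of the 11 and in 0.0365% of all windows. Its half-site TTGGC, on either strand and also part of the complete motif, stood before 4 of the 11 and in 41.5% of all windows. These are the windows of Prlr and Ghr, the kept genes of largest difference in each direction, that held a match, and those of Esr1 and Pgr, the steroid receptor genes that held one. Each is printed 5′ to 3′ in the direction of the gene, with matches in capitals.
Prlr (chr15:10223656-10223905, + strand): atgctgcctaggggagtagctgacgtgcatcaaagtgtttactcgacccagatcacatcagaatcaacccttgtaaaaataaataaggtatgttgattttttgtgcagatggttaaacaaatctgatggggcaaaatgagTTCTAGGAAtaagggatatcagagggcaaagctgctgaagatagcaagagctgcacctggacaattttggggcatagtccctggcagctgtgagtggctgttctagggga
Ghr (chr15:3581843-3582092, - strand): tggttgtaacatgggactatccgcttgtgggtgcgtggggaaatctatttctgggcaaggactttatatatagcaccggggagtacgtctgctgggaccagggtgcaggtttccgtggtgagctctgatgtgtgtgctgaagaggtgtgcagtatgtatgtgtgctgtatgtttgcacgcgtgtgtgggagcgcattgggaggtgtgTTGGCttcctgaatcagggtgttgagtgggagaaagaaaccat
Esr1 (chr10:4709908-4710157, + strand): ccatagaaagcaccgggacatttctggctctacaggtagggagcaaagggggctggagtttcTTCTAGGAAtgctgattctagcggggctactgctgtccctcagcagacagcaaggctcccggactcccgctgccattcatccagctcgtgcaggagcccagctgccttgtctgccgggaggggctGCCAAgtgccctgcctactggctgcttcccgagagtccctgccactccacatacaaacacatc
Pgr (chr9:8899583-8899832, + strand): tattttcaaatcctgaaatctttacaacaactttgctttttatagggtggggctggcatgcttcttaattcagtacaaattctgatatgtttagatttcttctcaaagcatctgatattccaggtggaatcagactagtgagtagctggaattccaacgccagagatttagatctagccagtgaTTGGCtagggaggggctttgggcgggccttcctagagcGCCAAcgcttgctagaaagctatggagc
The STAT match before the second Prlr start, at 110 bases upstream, and that before the second Esr1 start, at 188 bases upstream, had the same letters, TTCTAGGAA. A match of letters is a description and not a binding site. The other start sites of Prlr, Ghr and Esr1 held no match to any of the 3 motifs in these windows.

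At birth Vdr was the most abundant of the 9 receptor mRNAs in the wild type and Ghr in the Nfib-null column. In the wild type the order was Vdr (105 RPKM), Nr3c1 (42.9), Ghr (35.9), Prlr (18.0), Thra (10.1), Insr (8.78), Esr1 (5.80), Thrb (5.22) and Pgr (0.482). In the Nfib-null column it was Ghr (84.6), Vdr (75.6), Nr3c1 (27.5), Thra (23.4), Insr (12.9), Prlr (9.13), Esr1 (6.25), Thrb (4.82) and Pgr (0.899). Prlr held place 4 of 9 in the wild type and place 6 in the Nfib-null column, and Ghr places 3 and 1. The last 3 places held the same genes in both columns. Without replicate values it cannot be said which neighbours in these orders differ beyond their spread. The 9 genes together held 233 RPKM in the wild type against 245 in the Nfib-null glands as deposited, and 268 against 213 after median-ratio scaling. Vdr made up 45.3% of the wild-type total and 30.9% of the Nfib-null total, and Ghr 15.4% and 34.5%.

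**Figure D1:**
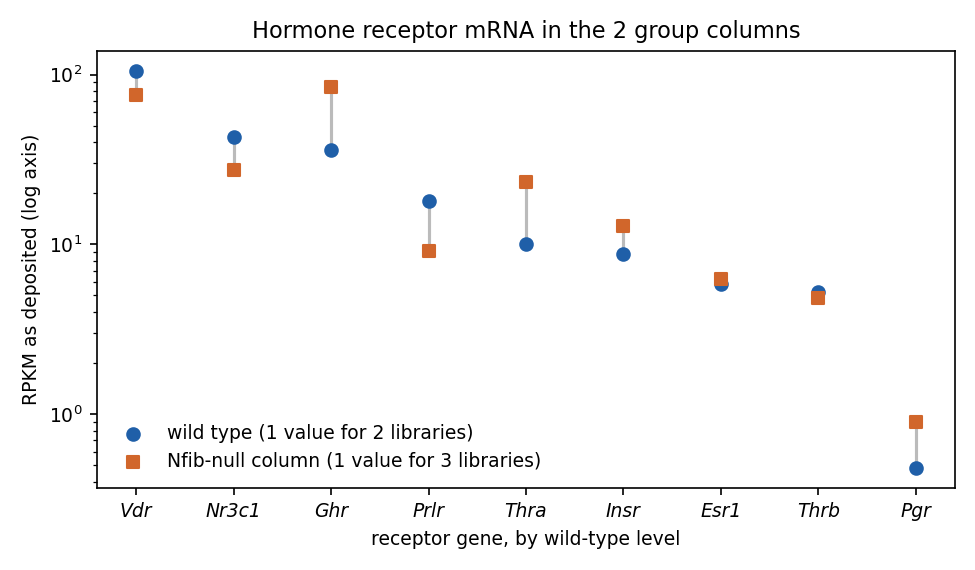
RPKM as deposited, on a log axis, of the 9 receptor genes in the wild-type column (circles) and the Nfib-null column (squares), ordered by wild-type level. Grey lines join the group values of a gene, and there are no error bars because each group has a single value. Prlr, Nr3c1 and Vdr lie lower in the Nfib-null column, Ghr, Thra, Insr and Pgr higher, and Esr1 and Thrb nearly coincide.

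After scaling, 2 of the 8 genes kept were at least 2-fold lower in the Nfib-null column, Prlr and Nr3c1, and 0 were at least 2-fold higher. Among all 12511 genes kept, 5.97% were at least 2-fold lower and 6.95% higher. The median over the 8 receptor genes was −0.35, against 0.00 over all genes. With so few genes and no replicates, 2 of 8 against that background is a description only.

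**Figure D2:**
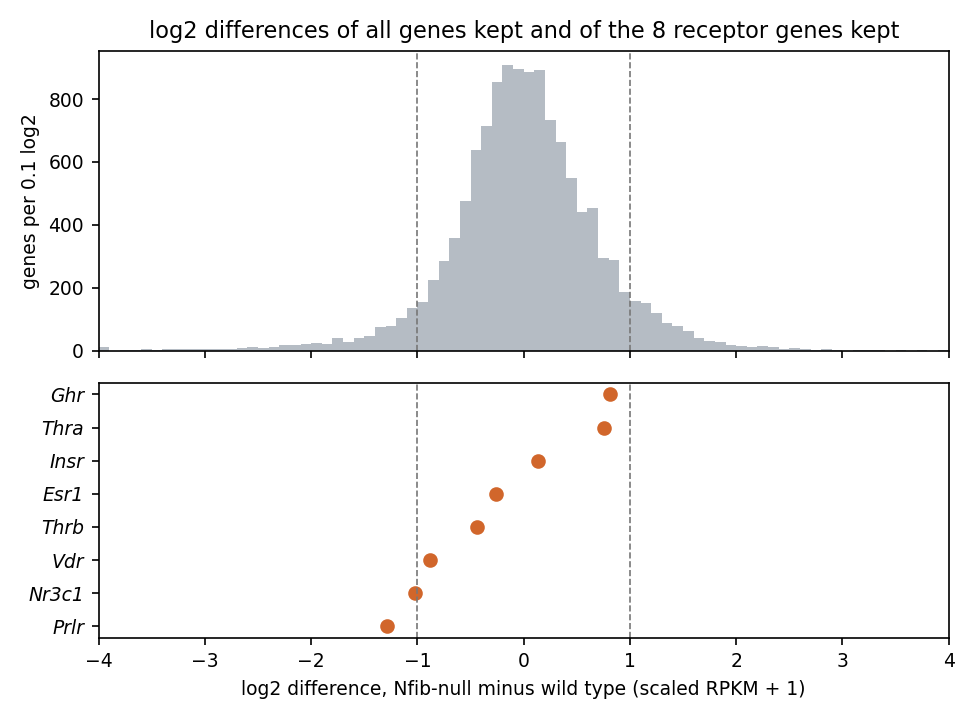
Log2 difference, Nfib-null minus wild type, of all 12511 genes kept (upper panel, genes per bin of 0.1, values beyond 4 in either direction counted in the outermost bins) and of the 8 receptor genes kept (lower panel). Dashed lines mark 2-fold; Prlr (−1.29) and Nr3c1 (−1.02) lie beyond the lower line, and Ghr (0.81) and Thra (0.76) lie inside the upper one.

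Prlr, the receptor that carries the lactogenic signal of prolactin, had 18.0 RPKM in wild-type glands and 9.13 in Nfib-null glands. The log2 difference was −1.29, lower than that of all but 3.44% of the genes kept. Its place among all genes kept, which does not depend on scaling, went from percentile 73.8 in the wild type to 45.1. With values as deposited the difference was −0.91, within 2-fold, and with a pseudocount of 5 it was −0.996, also just within. Prlr makes a long and several short receptor forms, which a whole-gene value does not separate. In the GENCODE annotation of GRCm38 it also shares 203 exonic bases with Gm21973, a coding gene model on the same strand with no row of its own under that name, so reads of that stretch cannot be told apart.

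Prlr is expressed in the epithelium of the gland, among other cells, and luminal epithelial markers were not lower as a list. Of 18 luminal markers, such as the keratins Krt8 and Krt18, 4 were higher and 2 lower, with a median of 0.22 after scaling. As deposited, their values summed to 2642 RPKM (Nfib-null) against 2052 (wild type). The median-ratio scaling takes away this excess, so the sums do not show more luminal RNA in the Nfib-null column. All 18 markers were above the minimum. Scaled to these markers, Prlr differed by −1.49. The list was not uniform: per RPKM of the keratin gene Krt8, Prlr had 0.0271 RPKM in Nfib-null and 0.108 in wild-type glands, but per RPKM of the alveolar factor gene Elf5, itself lower, it had 0.0285 and 0.0253. In RNA of a whole gland, fewer cells of a type and less RNA per cell cannot be told apart, here or in any result below.

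The genes of the kinase and STAT5 factors directly below the prolactin and growth hormone receptors were within 2-fold. Jak2, the receptor-bound kinase, stood at 15.5 against 9.58 RPKM (log2 0.26), and the transcription factor genes Stat5a at 55.7 against 63.7 (−0.59) and Stat5b at 26.6 against 22.1 (−0.14). In the list of 17 kinases, STATs, phosphatases and inhibitors, all kept, 1 was higher and 1 lower, with a median of 0.11. The higher was Socs3, a feedback inhibitor of cytokine receptors (15.0 against 3.95 RPKM, 1.33). The lower was Cish, an inhibitor and STAT5 target (21.3 against 38.7 RPKM, −1.23, and −0.83 as deposited, within 2-fold).

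Genes known to be induced by prolactin in epithelium were mostly lower. Of 9 kept, 6 were lower and 1 higher, with a median of −1.56, and the count of lower genes was 3 with quantile normalization. The whey acidic protein gene Wap (log2 −3.91), alpha-lactalbumin (Lalba, −3.57) and the caseins Csn1s1 (−2.36) and Csn2 (−1.92) differed most. Quantile normalization, which equates the columns rank by rank, brought Wap (−0.72) and Csn2 (0.00) within 2-fold and turned Csn1s1 to the opposite sign (0.75). Tnfsf11, the RANK ligand gene that prolactin and progesterone induce, lay below the minimum in both columns (0.113 against 0.167 RPKM).

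Ghr, the growth hormone receptor gene, differed in the opposite direction to Prlr. It had 84.6 RPKM in Nfib-null glands and 35.9 in wild-type glands, a log2 difference of 0.81, within 2-fold. It passed 2-fold with values as deposited (1.21) and with quantile normalization (1.01). Wild-type glands had 1.99 RPKM of Ghr for each RPKM of Prlr and Nfib-null glands 9.26, a ratio 4.65 times as high, which no uniform scaling of the columns can alter.

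Ghr is expressed in fat cells and stroma as well as epithelium, and most markers of fat cells and stroma were higher. Among 15 markers of white adipocytes 14 were higher and 0 lower (median 1.89), with a summed level of 14047 against 2789 RPKM. Of 11 fibroblast and matrix markers 10 were higher (median 1.54), summing to 1857 against 497 RPKM. All of these markers were above the minimum, and their part in the difference of Ghr was not tested. The 9 endothelial markers, all kept, were within 2-fold (median −0.01). Per unit of the adipocyte hormone gene Adipoq, Ghr stood at 0.125 in the Nfib-null column and 0.321 in the wild type.

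Of 5 genes known to be induced by growth hormone, 1 was higher and 2 lower (median 0.20). Igf1, the growth factor through which growth hormone acts in many tissues, stood at 9.85 against 3.11 RPKM (1.06), within 2-fold with quantile normalization and with luminal scaling (0.87). Igfals, the subunit that holds insulin-like growth factors in a circulating complex, was lower at 59.0 against 131 RPKM (−1.55), as was Cish, given above.

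Insr, the insulin receptor gene, was close to the median gene. It stood at 12.9 against 8.78 RPKM, a log2 difference of 0.13, and at percentiles 56.3 and 53.4 of the genes kept. The related receptor gene Igf1r stood lower in both columns, at 3.53 against 1.51 RPKM (0.57). The adaptor genes Irs1 (20.6 against 18.1 RPKM, −0.21) and Irs2 (24.1 against 20.04, −0.14) were likewise within 2-fold.

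Of 27 insulin signalling genes, all kept, 2 were higher and 2 lower, and the median was −0.01. The lower ones were Srebf1, the lipogenic transcription factor that insulin induces (90.1 against 190 RPKM, −1.48), and the kinase gene Akt1 (101 against 194, −1.34, and −0.93 as deposited). Slc2a4, the insulin-responsive glucose transporter, was among the higher ones (29.0 against 8.63 RPKM, 1.26). Slc2a4 is strongly expressed in fat cells, whose markers were mostly higher as given above, and their part in its difference was not tested.

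Nr3c1, the glucocorticoid receptor gene, was the highest of the 3 classical steroid receptors in both columns. Its level was 42.9 RPKM in wild-type glands and 27.5 in Nfib-null glands. The log2 difference of −1.02 lay just past 2-fold. It was within 2-fold with quantile normalization (−0.87), equal sums (−0.85), values as deposited (−0.62) and a pseudocount of 5 (−0.92). Its percentile went from 89.6 to 78.7. In the Nfib-null column Ghr stood above Nr3c1, and in the wild type below it, with 0.325 and 1.20 RPKM of Nr3c1 for each RPKM of Ghr.

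Of 18 genes that glucocorticoid is known to induce in many tissues, all kept, 7 were higher and 0 lower, with a median of 0.73. The count of higher genes was 11 with values as deposited (14.4% of all genes) and 6 with luminal scaling (4.69%). With fat cell markers as the scale 3 were higher and 9 lower, where 80.3% of all genes were lower. The secreted lipase inhibitor gene Angptl4 (284 against 20.5 RPKM, 3.33), the metallothionein gene Mt2 (255 against 19.0, 3.28), Pck1, an enzyme of glyceroneogenesis (223 against 21.6, 2.90), and Errfi1, an inhibitor of EGF receptors (63.8 against 11.7, 1.96), differed most. Fkbp5, a co-chaperone that dampens the receptor and is one of its standard targets, stood at 29.2 against 9.97 RPKM (1.07), and Tsc22d3, another standard target, at 28.6 against 15.8 (0.42). With luminal scaling Fkbp5 was within 2-fold (0.86). Angptl4 and Pck1 are also fat cell genes. Besides the adipocyte and stromal markers, 9 of 10 macrophage markers were higher (median 1.28, summed level 764 against 228 RPKM) and 6 of 9 lymphocyte markers kept were lower (median −1.11, summed level 12.4 against 28.5 RPKM). The part of these cells in the values of the glucocorticoid list was not tested.

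Enzymes that set steroid supply inside the tissue varied in both directions. Hsd11b1, which regenerates active glucocorticoid, stood at 33.7 against 10.2 RPKM (1.25), and H6pd, which supplies its cofactor, at 25.5 against 5.22 (1.72). Hsd11b2, which inactivates glucocorticoid, lay below the minimum (0.908 against 0.399 RPKM). Akr1c18, which inactivates progesterone, was higher at 4.75 against 0.603 RPKM (1.60), and Hsd17b7, an enzyme of both estradiol and cholesterol synthesis, was lower at 5.98 against 21.6 (−2.07). Of the 10 enzymes of this list kept, 3 were higher and 1 lower, with a median of 0.10. Akr1c18 was below 1 RPKM in the wild type and was kept through the Nfib-null column. Of 8 chaperones and co-chaperones of steroid receptors none differed by 2-fold, and their median was −0.50. With luminal scaling 1, Fkbp4 (−1.13), was lower (8.94% of all genes).

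Esr1, the gene of estrogen receptor alpha, was nearly level between the columns as deposited, at 6.25 RPKM against 5.80 in the wild type. The log2 difference was −0.26 after scaling and 0.09 as deposited, so its sign depended on the scaling. Pgr, the progesterone receptor gene, was the lowest of the 9, at 0.899 against 0.482 RPKM. At the lengths of its shortest and longest annotated coding transcripts this amounts to about 229 to 514 reads over the Nfib-null libraries and 48 to 108 over the wild-type libraries. These read numbers rest on the approximate depths given above. Its log2 difference was 0.19 with the pseudocount of 1 and 0.42 with 0.1, and it entered no count.

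Markers of hormone-sensing luminal cells, in which Esr1, Pgr and part of Prlr are expressed, were low, and 3 of 6 kept were higher (median 1.02), with a summed level of 29.7 against 8.62 RPKM over all 8 listed. The 2 below the minimum were Areg and Tnfsf11. Foxa1 (3.79 against 0.816 RPKM), Calca (3.16 against 0.305) and Prom1 (2.27 against 0.491) were below 1 RPKM in the wild type. They were kept through the Nfib-null column, where they are high, so the filter partly set this count and median. The count of higher markers was 0 with a pseudocount of 5, 2 with luminal scaling and 5 with values as deposited. Of 7 estrogen target genes kept, 2 were higher and 0 lower (median −0.17): Igfbp4, an insulin-like growth factor binding protein gene (146 against 40.0 RPKM, 1.44), and Wisp2 (4.50 against 0.809 RPKM, 1.34), both also expressed in stroma. Greb1, a standard estrogen target, was at 0.165 against 0.0595 RPKM, and Areg, the growth factor through which estrogen drives duct growth, at 0.829 against 0.191, both below the minimum. Of 4 progesterone target genes kept, 1 was higher, Calca, the calcitonin gene, at 3.16 against 0.305 RPKM (1.47), and 0 lower (median 0.87). That count was 3 with values as deposited, a pseudocount of 0.1 or a limit of 1.5-fold, and 0 with a pseudocount of 5 or a minimum of 5 RPKM. Wisp2, like Calca, was below 1 RPKM in the wild type and was kept through the Nfib-null column. The mineralocorticoid receptor gene Nr3c2 stood at 2.71 against 2.54 RPKM (−0.23).

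The thyroid hormone receptor genes parted. Thra had 23.4 RPKM in Nfib-null glands and 10.1 in wild-type glands (log2 0.76, and 1.14 as deposited, past 2-fold). Thrb stood at 4.82 against 5.22 RPKM (−0.44). There were thus 4.86 RPKM of Thra for each RPKM of Thrb in the Nfib-null column and 1.92 in the wild type, a ratio 2.53 times as high. The 3′ end of Thra overlaps Nr1d1, the gene of the clock repressor REV-ERB alpha on the opposite strand, by 263 exonic bases in the GENCODE annotation of GRCm38. Nr1d1 stood at 43.6 against 12.6 RPKM (1.32). No label says that reads were counted by strand, so reads of this stretch cannot be assigned to either gene, and the share of Thra that they make up was not tested.

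Genes of thyroid hormone supply and action lay on both sides of 0. Of 7 kept, 0 were higher and 2 lower, with a median of 0.61. The lower genes were Thrsp, a lipogenic regulator (523 against 1249 RPKM, −1.67), and Me1, malic enzyme (180 against 322 RPKM, −1.25, and −0.84 as deposited). With values as deposited 4 of the 7 were higher. The deiodinase genes that activate thyroid hormone were low, Dio1 listed at 0 in both columns and Dio2 at 0.458 against 0.274 RPKM.

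Vdr, the vitamin D receptor gene, had 105 RPKM in wild-type and 75.6 in Nfib-null glands, at percentiles 96.4 and 93.7. The log2 difference was −0.88, within 2-fold, and −1.10 when scaled to luminal markers. Of 15 genes of vitamin D supply and action 5 were kept, of which 2 were higher and 0 lower (median 0.94). Cyp24a1, the vitamin D-degrading enzyme and the standard target of the receptor, stood at 2.16 against 0.322 RPKM (1.07, and 0.96 with luminal scaling), and Cyp27a1, a mitochondrial sterol hydroxylase, at 9.96 against 2.74 (1.21). Cyp24a1 was below 1 RPKM in the wild type and was kept through the Nfib-null column, so the filter partly set the count of this list. Cyp27b1, which makes the active hormone, lay below the minimum at 0.191 against 0.147 RPKM. Vdr and Nr3c1 kept nearly the same proportion to each other, with 2.75 RPKM of Vdr for each RPKM of Nr3c1 in the Nfib-null column and 2.46 in the wild type.

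The shared partners of these nuclear receptors differed little. Rxra, the retinoid X receptor gene with which the thyroid and vitamin D receptors pair, stood at 30.3 against 23.6 RPKM (−0.05). Among 15 partner and coregulator genes kept, 1 was higher, the coactivator gene Ncoa7 (12.0 against 3.47 RPKM, 1.18, within 2-fold at 0.99 with luminal scaling), and 0 lower, with a median of −0.05.

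Other hormone receptors of the gland were mostly within 2-fold too. Of 17 listed, 9 were kept, of which 1 was higher and 0 lower, with a median of 0.57. The higher one was Adrb3, the adrenergic receptor of fat cells (43.6 against 8.82 RPKM, 1.80). Oxtr, the oxytocin receptor of the myoepithelial cells that eject milk, stood at 42.1 against 28.1 RPKM (0.16). The 9 basal and myoepithelial markers were all within 2-fold, with a median of 0.14.

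The hormones themselves mostly come from other organs. Prl, Gh and Ins1 were listed at 0 in both columns. Of 5 hormone genes kept, 4 were higher and 1 lower. The adipocyte hormones leptin (Lep, 94.7 against 13.5 RPKM, 2.32) and adiponectin (Adipoq, 677 against 112, 2.18) were higher, with Igf2 (10.1 against 3.05, 1.11) and Igf1. The lower one was Pthlh, the parathyroid hormone-related protein that the lactating gland secretes to draw calcium from bone, at 1.65 against 22.6 RPKM (−3.47). Its receptor gene Pth1r had 6.03 against 2.03 RPKM (0.90) and was singled out knowing that value.

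**Figure D3:**
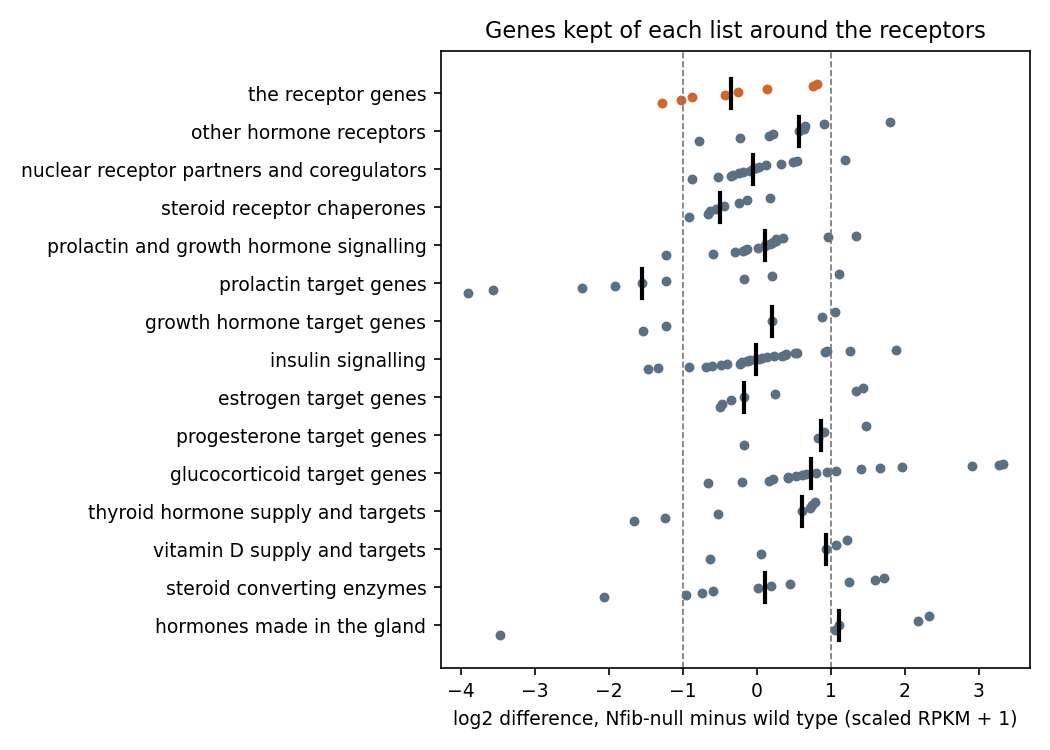
Log2 difference, Nfib-null minus wild type, of each gene kept (points) in the receptor set and in the lists of related genes, with the median of each list as a vertical bar and dashed lines at 2-fold. The receptor genes spread from −1.29 to 0.81, prolactin target genes lie mostly to the left (median −1.56) and glucocorticoid target genes mostly to the right (median 0.73).

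How the receptor genes are placed relative to 0 depended on what the columns were scaled to. Their order relative to each other was largely fixed in advance, since every scaling but quantile normalization divides a column by 1 factor. With luminal markers as the scale 3 of the 8 were at least 2-fold lower, Vdr joining Prlr and Nr3c1, where 8.94% of all genes were. With values as deposited 0 were lower (2.95% of all genes) and 2, Ghr and Thra, were higher (14.4% of all genes). With quantile normalization 1, Prlr, was lower (5.48% of all genes) and 1, Ghr, higher (6.75%). Equal sums without the 20 highest genes left 1 lower, Prlr (4.38% of all genes), and a pseudocount of 5 left 0 (3.55%). The 2 lower genes stayed with a pseudocount of 0.1 (7.53% of all genes), without the filter (3.42%) and with a minimum of 5 RPKM (6.8%). The filter settings change only which genes are counted and not the value of a gene. At a limit of 1.5-fold 3 were lower (14.7% of all genes) and 2 higher (17.1%), and at 4-fold 0 were lower (1.23%). With fat cell markers as the scale all 8 were at least 2-fold lower, as were 80.3% of all genes. Among the 8 genes kept, Prlr had the lowest value and Ghr or Thra the highest under each of the scalings. Of these, only quantile normalization could have changed that order by more than the pseudocount allows. Prlr, Nr3c1, Vdr and Thrb were below 0 under every scaling and pseudocount tried. Several genes of the related lists have low values, and a pseudocount of 5 brought Socs3 (0.91), Igf1 (0.66), Igf2 (0.69), Fkbp5 (0.88), Wisp2 (0.59), Calca (0.53), Cyp24a1 (0.36), Cyp27a1 (0.74), Akr1c18 (0.68) and Ncoa7 (0.77) within 2-fold.

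**Figure D4:**
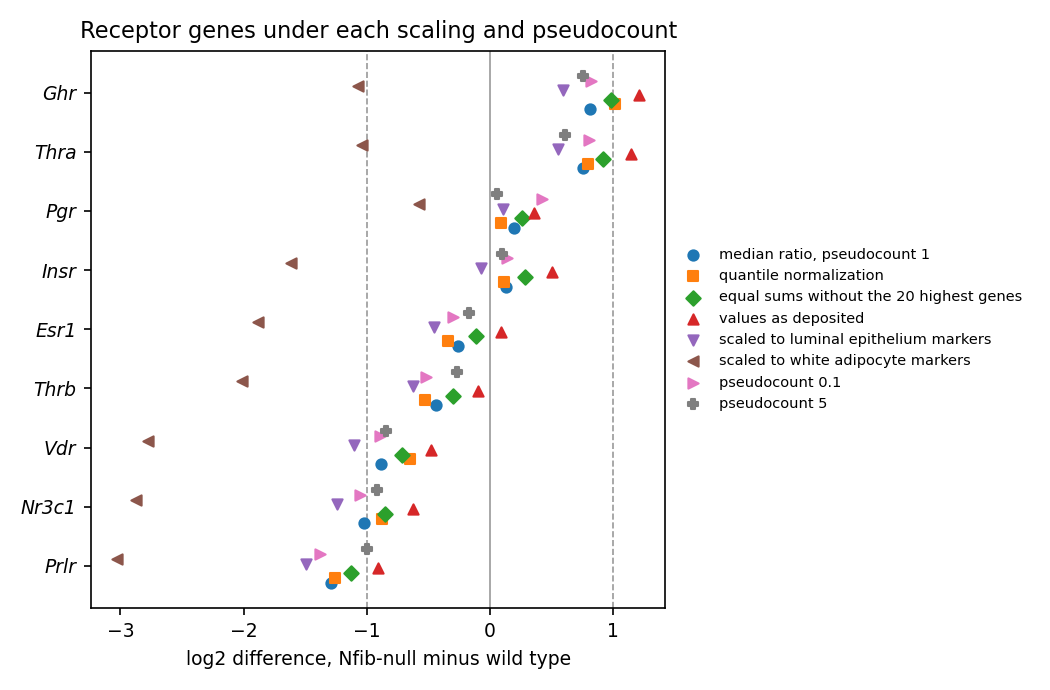
Log2 difference, Nfib-null minus wild type, of the 9 receptor genes under each scaling and pseudocount (symbols), with dashed lines at 2-fold. Scaling to white adipocyte markers moves all genes to the left, Prlr to −3.03 and Ghr to −1.07; among the other settings Prlr lies between −1.49 and −0.91.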

How the data were processed

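Poly(A) RNA was sequenced in 5 libraries, 2 wild-type and 3 Nfib-null, on an Illumina HiSeq instrument, per the labels' protocols. Per the submitters' processing notes, CASAVA and TopHat were used with build mm9; for the counting tool and annotation nothing is stated in the labels or headers. The authors deposited 1 table of RPKM values with 22609 genes, per the file headers. Its 2 columns give 1 value a gene for a whole group, so no test could be run and no p-value is given.

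Genes with a library-weighted mean of at least 1 RPKM were kept (12511). A gene below 1 RPKM in 1 column can thus be kept through the other, and its difference is then partly set by the filter. Columns were divided by median-ratio factors (1.15 for Nfib-null, 0.867 for wild type), and differences were taken on log2(value + 1), a scale that understates changes of low genes. The calculation was tested on simulated columns. These held a uniform scale factor and known changes balanced in both directions, but no drop in the share of milk protein genes. They therefore do not test the scaling for such a difference. Depth and overlaps used GENCODE M21 (GRCm38) and promoters RefSeq (GRCm38.p6), builds other than the files', so no gene coordinates from them are given beyond the promoter windows. Python 3.11.15, numpy 2.4.6 and pandas 2.3.3 were used.

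The receptor genes, the gene lists and the 2-fold limit were chosen with earlier results of these data known. All receptor genes were named; of each other list, up to 4 genes of largest difference from 2-fold on, and fixed pathway components. Some genes that this rule names are not reported here. Some genes stand in several lists. Alternatives were other scalings, pseudocounts of 0.1 and 5, no filter or a minimum of 5 RPKM, and limits of 1.5-fold and 4-fold.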

Additional observations from a re-analysis of the deposited data

How the results depend on the processing

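No paired analysis was possible because the table holds no value per library, and for the same reason no library could be left out. The number of receptor genes at least 2-fold higher was 0, where 6.95% of all genes kept were. It was 1 with quantile normalization (6.75% of all genes), and 2 with values as deposited (14.4%) or a limit of 1.5-fold (17.1%). The number lower was 2, where 5.97% of all genes were. It was 1 with quantile normalization (5.48% of all genes) or equal sums without the 20 highest genes (4.38%). It was 0 with values as deposited (2.95%), a pseudocount of 5 (3.55%) or a limit of 4-fold (1.23%). With scaling to white adipocyte markers it was 8, where 80.3% of all genes were lower. The number lower stayed between 2 and 3 with the minimum of 5 RPKM (6.8% of all genes), no filter (3.42%) or a pseudocount of 0.1 (7.53%). So it did with luminal scaling (8.94%) or the 1.5-fold limit (14.7%). Of 79 values of single receptor genes under other settings, 60 lay within 1.5-fold of the value given and on the same side of 2-fold. These 60 include the values without the filter and with the minimum of 5 RPKM, which equal the value given by construction. Prlr and Nr3c1, the genes called lower, did not change sign. The sign changed under at least 1 setting for 5 of the 9: with adipocyte scaling Ghr came to −1.07, Thra to −1.04, Insr to −1.61 and Pgr to −0.57, Insr also to −0.07 with luminal scaling, and Esr1 to 0.09 with values as deposited. The median of all genes kept moved to 0.35 with values as deposited, 0.15 with equal sums, −0.19 with luminal scaling and −1.65 with scaling to adipocyte markers. The main limit is the lack of replicate values; for Pgr, with about 48 to 108 wild-type reads, counting error limits it too.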

Other observations

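The following insulin and cytokine signalling genes were picked after their values had been seen, and after median-ratio scaling only Akt1 among them passed 2-fold. Akt1 was lower (101 against 194 RPKM, log2 −1.34), and Akt2, the AKT form that carries much of the insulin signal in fat cells, stood at 47.7 against 18.6 RPKM (0.91, within 2-fold). Stat3, which signals for gp130 cytokines and drives involution, stood at 104 against 40.1 RPKM (0.95, within 2-fold). Grb10, an inhibitory adaptor of the insulin receptor, stood at 21.5 against 7.93 RPKM (0.95, within 2-fold). The part of the higher fat cell markers in these differences was not tested.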
